A study of Mus musculus with 8 samples.

Results

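Apoe-high cells of the undifferentiated cultures were defined as day 0 cells with a deposited log2 value of Apoe of at least 4. They numbered 1264 of the 9188 day 0 cells, with 893 of 4331 in the Kmt2d+/βgeo library and 371 of 4857 in the wild-type library, and the whole series held 30408 cells. Each library's Apoe-high cells were set against its own Apoe-low cells, those with a value below 2, which numbered 1522 and 2729. The cells were chosen by their measured Apoe values, so the class is a range of 1 measured gene and not a cell type, and what follows describes it without a test.

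Neural stem and progenitor cells (NPCs) had been grown from the microdissected dentate gyrus of mouse embryos harvested at embryonic day 18 per the labels, while the study's methods give the day before. Females of the strain C57BL/6J had been mated to Kmt2d+/βgeo males, and the cells came from the litters. The Kmt2d+/βgeo cells carry 1 gene-trap allele, Mll2Gt(RRt024)Byg, of the histone methyltransferase gene Kmt2d, and the label of the other library names only C57BL/6J, which is called wild type here after the study's use. Both day 0 cultures were held undifferentiated with EGF and FGF2 in Neurobasal medium, and the libraries of days 2, 4 and 8 were collected after these factors were withdrawn. RNA was read from its 3′ end in droplets, and molecules were told apart by unique molecular identifiers (UMIs), so 1 UMI stands for 1 molecule of RNA. Each genotype and day has 1 library, so genotype cannot be told apart from culture, embryo or library, and 2 libraries that agree are not replicates. Kmt2d itself had a mean of 0.20 normalised counts in both Apoe classes of the Kmt2d+/βgeo library and 0.18 and 0.15 in wild-type Apoe-high and Apoe-low cells. A 3′ count does not check a gene trap.

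Apolipoprotein E, the product of Apoe, packs cholesterol and phospholipid into the lipoprotein particles of the brain, and astrocytes are its main source there. The particles are loaded through ATP-binding cassette transporters and taken up by receptors at the cell surface. Radial glia and the quiescent neural stem cells of the dentate gyrus share many genes with astrocytes, among them Slc1a3, the glutamate transporter GLAST.

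Apoe-high cells made up 20.6% of the Kmt2d+/βgeo library at day 0, with an exact 95% binomial interval from 19.4% to 21.9%. They made up 7.64% of the wild-type library, with an interval from 6.91% to 8.42%. These intervals, like those below, cover counting error only. Apoe-low cells were 35.1% and 56.2% of the same libraries. Apoe was at 0 in 78 Kmt2d+/βgeo cells and 178 wild-type cells. In both libraries the values ran on across the threshold without a gap. Just inside it, within 0.25 of the log2 value of 4, lay 155 Kmt2d+/βgeo and 82 wild-type cells, and just outside it lay 149 and 96. After withdrawal of growth factors, between 93.5% and 98.1% of the cells of the 6 later libraries passed the same threshold.

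**Figure D1:**
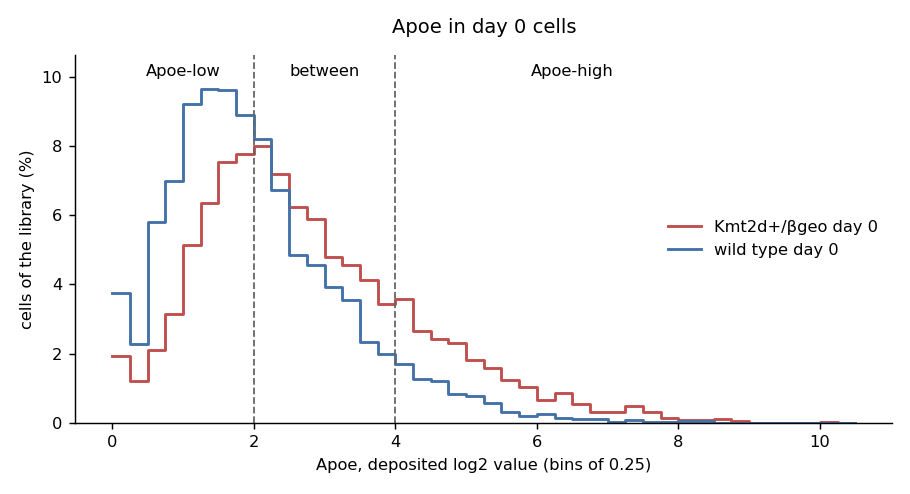
Share of the cells of each day 0 library (vertical axis, %) by deposited log2 value of Apoe (horizontal axis, bins of 0.25), with dashed lines at the limits of 2 and 4. The Kmt2d+/βgeo curve lies to the right of the wild-type curve, and 20.6% against 7.64% of cells lie at or beyond the upper limit.

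Within the class, the median log2 value of Apoe was 4.93 in the Kmt2d+/βgeo library and 4.69 in the wild type, and the highest values were 10.2 and 8.44. On the linear scale of normalised counts, in which every cell sums to the same total, Apoe averaged 51.2 in Apoe-high and 1.63 in Apoe-low cells of the Kmt2d+/βgeo library. The wild-type averages were 36.9 and 1.42. Low did not mean without Apoe, since 94.9% and 93.5% of Apoe-low cells had a value of it above 0. Estimated counts need not be whole, so a gene detected by such a value can have less than 1 UMI. No droplet background was measured and no cell type without Apoe was defined here, so the part of free RNA in the low class was not tested.

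Apoe-high cells were the shallower class in both libraries. Their median total was 20779 UMIs against 25203 in Apoe-low cells of the Kmt2d+/βgeo library, and 17521 against 21918 in the wild type. They had a median of 3182 and 2838 genes detected among those of the matrix. After each cell was thinned to 3000 UMIs, Apoe-high cells by the same value were 19.9% and 7.89% of the libraries. Thinning left out 3 Apoe-high and 11 Apoe-low cells of the Kmt2d+/βgeo library and no wild-type cell. The day 0 libraries shared 7 cell barcodes, none of them Apoe-high in both, and no 2 libraries of the series shared more than 10.

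Slc1a3, named with Apoe as a marker of these cells, was only modestly higher in them. Its mean was 9.90 normalised counts in Apoe-high and 7.13 in Apoe-low cells of the Kmt2d+/βgeo library, and 12.9 against 8.97 in the wild type. The log2 ratios were 0.47 and 0.53, short of the 2-fold limit set for a difference. A value of Slc1a3 above 0 was found in 98.9% of both Kmt2d+/βgeo classes and in 97.8% and 99.5% of wild-type Apoe-high and Apoe-low cells. In cells thinned to 3000 UMIs the shares were 90.2% and 86.8%, and 92.7% and 92.4%. Slc1a3 was thus detected in nearly every day 0 droplet of both classes, and the part of free RNA in this was not tested. Slc1a3 (chr15:8634124-8710764, GRCm38) overlaps the annotated gene Gm37310 on its own strand, so some reads could belong to either.

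The 2 classes were then compared gene by gene, as the log2 ratio of mean normalised counts within each library. A gene was compared where its mean reached 0.1 in either class of both libraries, which left 7058 genes beside Apoe. It was counted as higher or lower where the ratio reached 2-fold, a log2 ratio of 1, with the same sign in both libraries. By this rule 130 genes were higher in Apoe-high cells, 1.84% of those compared, and 56 were lower, 0.793%. No gene passed the limit in opposite directions. A further 35 genes passed it in the Kmt2d+/βgeo library alone and 268 in the wild type alone. Per library, 2.36% of genes were higher and 0.875% lower in Kmt2d+/βgeo, and 4.81% and 2.22% in wild type. Across genes, which are not independent of each other and share their cells, the ratios of the libraries had a Pearson r of 0.860. Their SDs were 0.41 in the Kmt2d+/βgeo library and 0.54 in the wild type. The wild-type ratio was the larger for 104 of the 130 higher genes and the lower for 52 of the 56 lower genes, and the wild-type class was the smaller, with 371 cells.

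**Figure D2:**
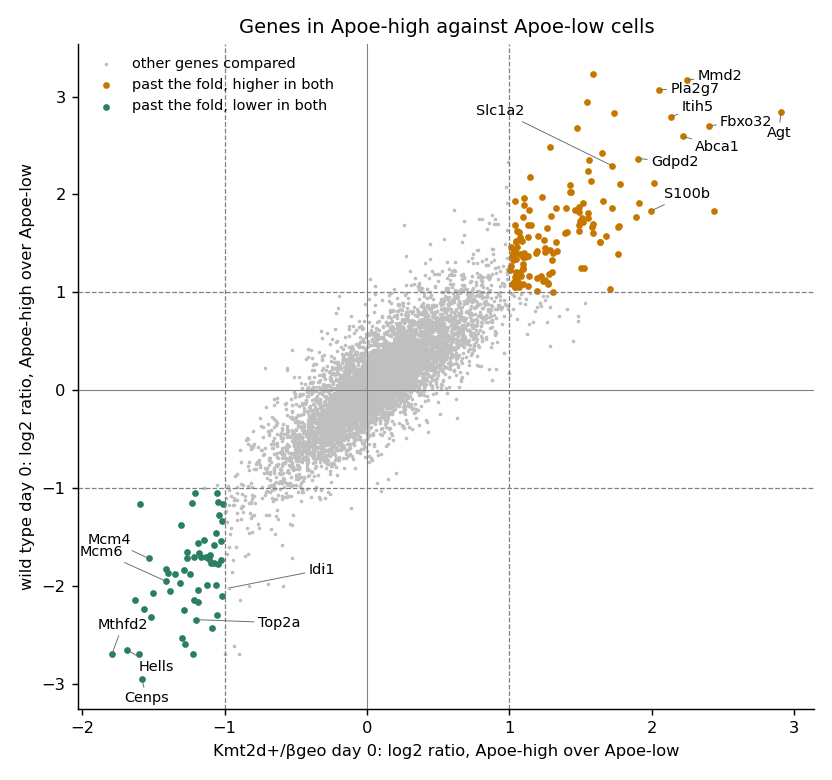
Log2 ratio of mean normalised counts in Apoe-high over Apoe-low cells for each of 7058 genes, in the Kmt2d+/βgeo library (horizontal axis) and the wild-type library (vertical axis), with dashed lines at ratios of 1 and -1. Orange points are the 130 higher genes, green points the 56 lower genes and grey points the rest, and the points run along 1 rising band.

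Genes were ranked by the smaller of their 2 log2 ratios. By this rule the higher set began with Agt, which encodes angiotensinogen and is a product of astrocytes in the brain, while in the wild type alone Mmd2 and Pla2g7 had higher ratios. Its mean was 1.01 normalised counts in Apoe-high and 0.135 in Apoe-low cells of the Kmt2d+/βgeo library, and 1.55 against 0.216 in the wild type. The log2 ratios were 2.91 and 2.85. With the UMIs of each class pooled, the exact 95% intervals of the ratio were 2.60 to 2.99 and 2.71 to 3.04. Agt was detected in 44.5% of Apoe-high and 15.4% of Apoe-low Kmt2d+/βgeo cells, and in 22.4% and 4.57% after thinning. The wild-type shares were 54.2% and 20.5%, and 34.2% and 6.82% after thinning. Apoe-high cells thus held Agt more often in both libraries, though the gene was not detected in many of them.

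Abca1, the transporter that loads cholesterol onto apolipoprotein E, averaged 1.42 normalised counts in Apoe-high and 0.305 in Apoe-low cells of the Kmt2d+/βgeo library. In the wild type it averaged 2.29 and 0.379, and the log2 ratios were 2.22 and 2.59. The other leading genes were Mmd2, with ratios of 2.25 and 3.17, Pla2g7, with 2.06 and 3.07, Itih5, with 2.13 and 2.79, and Fbxo32, with 2.40 and 2.70. Pla2g7 encodes a phospholipase that is carried on lipoproteins, Itih5 a protein of the extracellular matrix and Fbxo32 a ubiquitin ligase subunit first known from muscle atrophy. Gdpd2, a glycerophosphodiester phosphodiesterase, had ratios of 1.91 and 2.37. Enpp2, which encodes the lysophospholipase autotaxin, had 1.91 and 1.92, and Ppp2r2b, a regulatory subunit of protein phosphatase 2A, had 2.02 and 2.12. Fbxo32 and Ppp2r2b were rare, with means of 0.115 and 0.117 in Kmt2d+/βgeo Apoe-high cells.

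Among the astrocyte markers, 15 could be compared beside Apoe and 4 of them were higher, where 1.84% of all genes were. S100b, a calcium-binding protein, averaged 1.62 against 0.404 normalised counts in the Kmt2d+/βgeo library and 1.33 against 0.372 in the wild type, with log2 ratios of 2.00 and 1.83. Slc1a2, the glutamate transporter GLT-1, averaged 1.00 against 0.304 and 2.23 against 0.454, with ratios of 1.72 and 2.29. Cst3, the secreted protease inhibitor cystatin C, had ratios of 1.13 and 1.37, and Aldh1l1, an enzyme of folate metabolism, had 1.04 and 1.15. Both were just under the limit in Kmt2d+/βgeo among cells between the quartiles of UMIs of their library, with 0.96 and 0.87, and Aldh1l1 also after thinning, with 0.99. In all, 14 of the 15 were above 0 in both libraries, where 49.1% of all genes were. The median over the list was 0.68 in Kmt2d+/βgeo and 1.18 in wild type, where that of all genes was 0.07 and 0.09. Glul, which encodes glutamine synthetase, was level in the Kmt2d+/βgeo library, with a ratio of -0.00, and had 0.77 in the wild type. Gja1, which encodes connexin 43, had 0.41 and 1.18. Gfap, Aqp4 and Aldoc of the list had no row under these names in the matrix and could not be read here.

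Several more of the 130 higher genes were picked out after their values were seen. Ntrk2, a neurotrophin receptor, had log2 ratios of 1.59 and 1.61, and Mertk, a receptor that astrocytes use to engulf synapses, had 1.64 and 1.52. Kcnj10, the astrocyte potassium channel Kir4.1, had 1.02 and 1.40. Vcam1, an adhesion protein found on quiescent neural stem cells, had 1.25 and 1.13. These picks do not stand for the 130 genes, which also hold genes known from neurons, such as Mapt, Kif1a, Dlgap1 and Nfasc. The cell types in which the 130 genes are made were not tested.

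Of 12 radial glia and neural stem cell markers compared, 2 were higher, where 1.84% of all genes were. In both libraries 9 of them were above 0 and 2 below, where 49.1% and 32.4% of all genes were. Ednrb, the endothelin receptor B, averaged 4.01 against 1.43 normalised counts in the Kmt2d+/βgeo library and 10.9 against 3.09 in the wild type, with log2 ratios of 1.49 and 1.82. Ttyh1, a membrane protein of neural stem cells, had ratios of 1.28 and 2.49, and 0.92 in Kmt2d+/βgeo against cells with Apoe at 0. Ptprz1, a receptor phosphatase, stayed under the limit with 0.62 and 0.81, and Tnc, which encodes tenascin C, was on the other side with -0.51 and -0.54. The medians over the list were 0.38 and 0.43, against 0.07 and 0.09 over all genes. Some progenitor genes were picked out after their values were seen, most of them for being near level. Olig2 had ratios of 0.15 and -0.14, Sox9 had 0.14 and 0.21, Egfr had -0.06 and 0.44, and Fabp7, a fatty acid binding protein of radial glia, had 0.33 and 0.06. Pax6, a transcription factor of radial glia, was on the lower side with -0.39 and -0.46. Vim, the intermediate filament vimentin, had 0.43 and 0.49.

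The lists of other cell types could be read only in part. None of 11 vascular and mural genes had a row, and of 9 genes of fibroblasts and meninges only Fn1 did, with ratios of -0.04 in both libraries. Of 13 oligodendrocyte lineage genes 2 were compared. Lhfpl3 had 1.48 and 0.76 and Cnp had 0.57 and 0.88. Rbfox3, a marker of mature neurons, averaged 0.00501 against 0.00328 normalised counts in the Kmt2d+/βgeo library and 0.0168 against 0.0167 in the wild type, near 0 in every class. Of the other neuron genes 2 were compared, Map2 with -0.03 and 0.08 and Prox1, a transcription factor of dentate granule neurons, with 0.28 and 0.80. Gad1, Elavl3 and Nrxn3 were under the minimum mean in a library and had ratios of 1.29 and 1.08, 0.75 and 1.21, and 3.19 and 2.45. Their means in Apoe-high cells were 0.0690 and 0.154, 0.0154 and 0.0358, and 0.0186 and 0.0501 normalised counts, so the neuron genes that were read lay at or above the level of Apoe-low cells apart from Map2 in Kmt2d+/βgeo, and their part in the class was not tested. Sox10, Pdgfra, Dcx, Aif1, C1qa and Csf1r had no row under these names, so a share of microglia or vascular cells among the Apoe-high cells was not tested.

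**Figure D3:**
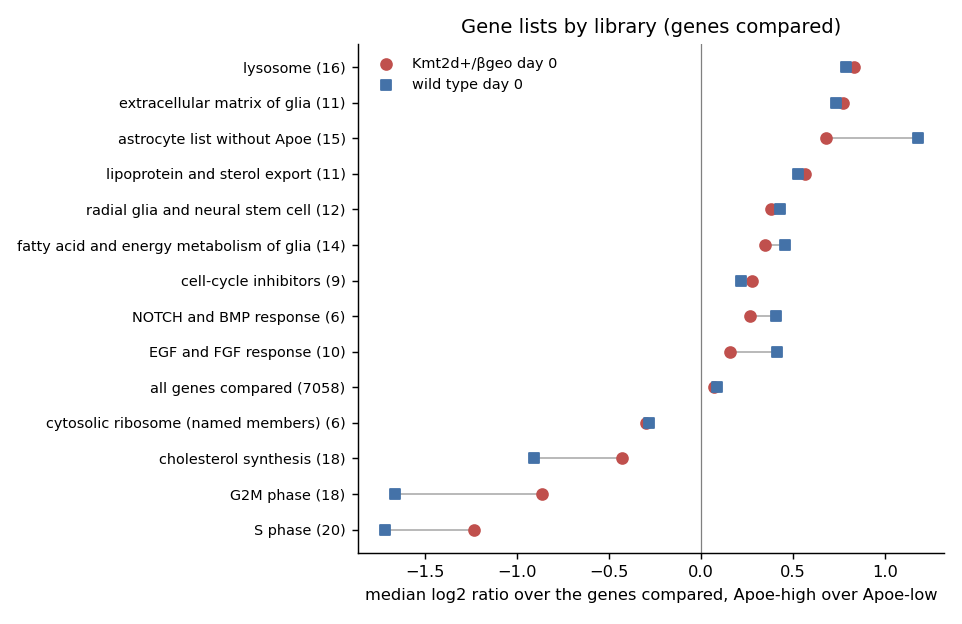
Median log2 ratio in Apoe-high over Apoe-low cells for each gene list with at least 5 genes compared (horizontal axis), with circles for the Kmt2d+/βgeo library and squares for the wild type, and the number of genes compared in brackets. The astrocyte and lysosome lists lie on the right, and the cholesterol synthesis, G2M and S phase lists on the left, with the S phase medians at -1.24 and -1.72.

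Sterol genes split by role. Of 11 genes of lipoprotein handling compared beside Apoe, the exporter Abca1 was the only one counted as higher, where 1.84% of all genes were. Lrp1, an uptake receptor for apolipoprotein E, reached 1.03 in Kmt2d+/βgeo and 0.97 in wild type, and Scarb2, a lysosomal membrane protein, had 0.68 and 0.71. Of 18 genes of cholesterol synthesis none passed the limit in both libraries, and 15 were below 0 in both, where 0.793% of all genes were lower and 32.4% below 0. Their medians were -0.43 and -0.91. Idi1, which makes the isoprenoid precursor dimethylallyl pyrophosphate, averaged 0.563 against 1.10 and 0.210 against 0.850 normalised counts, with ratios of -0.97 and -2.02. Sqle, squalene epoxidase, had -0.71 and -1.27, Acat2 had -0.93 and -1.10 and Fdft1, squalene synthase, had -0.54 and -0.98. In Apoe-high cells Abca1 was thus on the higher side, and 15 of the 18 synthesis genes were on the lower.

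Lysosomal genes lay on the higher side. Of 16 compared, 15 were above 0 in both libraries, where 49.1% of all genes were, with medians of 0.83 and 0.79 against 0.07 and 0.09, and 2 passed the limit, where 1.84% of all genes did. Lgmn, the protease legumain, had log2 ratios of 1.14 and 1.16, and Cd63, a membrane protein of late endosomes, had 1.02 and 1.09. Between the quartiles of UMIs both were under the limit in Kmt2d+/βgeo, with 0.98 and 0.85, and Cd63 had 0.91 and 0.98 among cells at or below the median G2M sum of their library. Ctsl, the protease cathepsin L, had 1.08 and 0.89. Of 11 extracellular matrix genes of glia 9 were above 0 and 1 below 0 in both libraries, and 1 passed, Timp3, an inhibitor of metalloproteinases, with 1.43 and 2.09, and with 0.69 in Kmt2d+/βgeo against cells with Apoe at 0. Sparcl1, a matrix protein of astrocytes, was near the limit with 0.99 and 1.24. Of 14 genes of glial energy metabolism 10 were above 0 and 2 below 0 in both libraries, and 2 passed. Pygb, a glycogen phosphorylase, had 1.46 and 1.84, and Ldhb, a subunit of lactate dehydrogenase, had 1.07 and 1.06, but 0.95 and 0.93 between the quartiles of UMIs and 0.93 and 0.87 at or below the median G2M sum. Psat1, an enzyme of serine synthesis, was on the other side with -0.70 and -0.85.

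In other lists 0 genes passed the limit in both libraries, where 1.84% of all genes were higher and 0.793% lower, but few were compared: 10 of 18 for EGF and FGF response, 6 of 22 for NOTCH and BMP response, 3 of 10 for metal binding, 3 of 16 for reactive astrocytes, 2 of 18 for stress and 6 of 16 for the cytosolic ribosome. Fgfr3, a fibroblast growth factor receptor, had log2 ratios of 0.81 and 1.74, and the 10 genes of EGF and FGF response compared had medians of 0.16 and 0.41. Notch3, a Notch receptor, had 1.22 and 0.90, and Bmpr1b, a BMP receptor, had 1.02 and 0.98, each just short of the limit in wild type. Of the metal-binding proteins, Mt2 had 0.74 and 1.36 and Mt3 had 0.61 and 1.23. The reactive astrocyte genes Cd44 and Cp had 0.58 and 1.09, and 0.72 and 0.42. Of the stress genes, Klf6 had 0.65 and 0.51 and Hsp90aa1 had -0.48 and -0.79. The 6 cytosolic ribosomal protein genes compared were all below 0 in both libraries, where 32.4% of all genes were, with medians of -0.30 and -0.28, Rps6 at -0.57 and -0.60 and Rplp0 at -0.18 and -0.17.

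Of the 10 genes that led the lower set, 4 belong to the S phase list, namely Hells, Wdr76, Mcm4 and Mcm6. Mthfd2, a mitochondrial folate enzyme that feeds nucleotide synthesis, averaged 0.158 normalised counts in Apoe-high and 0.545 in Apoe-low cells of the Kmt2d+/βgeo library, and 0.0589 against 0.382 in the wild type. The log2 ratios were -1.79 and -2.70. It overlaps the annotated gene Gm43890 on its own strand. Hells, a chromatin remodeller of replicating cells, averaged 0.210 against 0.676 and 0.0594 against 0.373, with ratios of -1.68 and -2.65 and pooled intervals from -1.77 to -1.38 and from -3.22 to -2.02. Mcm6, a subunit of the replicative helicase, averaged 0.398 against 1.06 and 0.233 against 0.899, with ratios of -1.41 and -1.95. Mcm4, another subunit, had -1.53 and -1.72. Gins1, which joins the helicase, had -1.60 and -2.69, Chaf1a, which lays down histones behind the fork, had -1.52 and -2.32, and Dna2, a nuclease of DNA replication, had -1.50 and -2.07. Among cells between the quartiles of UMIs of their library Dna2 had -0.98 in Kmt2d+/βgeo, just under the limit. Cenps, a centromere protein, had -1.58 and -2.94, Plk4, the kinase of centriole duplication, had -1.57 and -2.23, and Wdr76 had -1.63 and -2.14. In the wild type these rest on few molecules, since the Apoe-high mean of Gins1 was 0.0169 and that of Cenps 0.0245.

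Genes of S phase are known targets of the E2F factors, and promoters are shown here to place the letters searched beside the genes that led the lower set. RefSeq promoters on GRCm38.p6, from 250 bases before to 50 after the start site, were matched for 44 of the 56 lower and 106 of the 130 higher genes. The shares given for all promoters cover 27025 genes, among them genes that were not compared. Shares over the compared genes alone were not computed. The E2F letters searched were TTTCCCGC and TTTGGCGC, on both strands, and they were found in 10 of 53 promoters of the lower genes (18.9%), in none of 141 promoters of the higher genes and in 1.56% of all 32851 promoters. Of the 10 leading lower genes 8 were matched, and the 3 whose promoter held these letters are printed from 5′ to 3′ with the letters in capitals, beside the Apoe promoter at the gene's outer start site, which holds none of the letters searched and so no capitals. The start site is base 251 of each window, and the E2F letters begin at base 189 in Hells, at bases 141 and 204 in Mcm6 and at base 277 in Cenps.
Apoe, chr7:19699139-19699438, minus strand: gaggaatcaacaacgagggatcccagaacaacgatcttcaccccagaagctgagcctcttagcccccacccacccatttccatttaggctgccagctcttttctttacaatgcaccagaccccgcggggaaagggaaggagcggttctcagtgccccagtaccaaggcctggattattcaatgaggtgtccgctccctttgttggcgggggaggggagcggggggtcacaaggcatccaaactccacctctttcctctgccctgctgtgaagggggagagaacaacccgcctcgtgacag
Hells, chr19:38930740-38931039, plus strand: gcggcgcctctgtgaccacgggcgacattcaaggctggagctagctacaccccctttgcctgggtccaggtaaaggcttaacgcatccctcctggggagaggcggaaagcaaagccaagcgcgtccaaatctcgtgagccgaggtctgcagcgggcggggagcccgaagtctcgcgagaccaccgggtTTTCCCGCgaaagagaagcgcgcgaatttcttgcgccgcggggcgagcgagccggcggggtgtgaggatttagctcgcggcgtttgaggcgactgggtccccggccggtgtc
Mcm6, chr1:128359656-128359955, minus strand: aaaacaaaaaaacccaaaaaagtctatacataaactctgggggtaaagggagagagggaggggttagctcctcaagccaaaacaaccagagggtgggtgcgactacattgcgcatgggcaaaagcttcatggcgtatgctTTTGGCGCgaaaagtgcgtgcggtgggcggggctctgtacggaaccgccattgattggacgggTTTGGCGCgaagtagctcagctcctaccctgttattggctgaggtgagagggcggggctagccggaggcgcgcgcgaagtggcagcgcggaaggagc
Cenps, chr4:149137551-149137850, minus strand: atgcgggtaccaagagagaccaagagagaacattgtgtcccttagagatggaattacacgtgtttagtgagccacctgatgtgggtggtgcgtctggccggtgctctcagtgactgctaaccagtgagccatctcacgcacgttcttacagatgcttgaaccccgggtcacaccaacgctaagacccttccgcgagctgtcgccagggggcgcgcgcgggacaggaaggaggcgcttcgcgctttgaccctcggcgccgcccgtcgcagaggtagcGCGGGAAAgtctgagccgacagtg

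The cell-cycle element TTTGAA, known as CHR, was in 24.5% of the promoters of lower genes, 7.09% of those of higher genes and 17.9% of all. It was also in both inner promoters that the table gives for Apoe. The NFI site, TTGGC and GCCAA with 5 bases between them, and the DR4 element, AGGTCA repeated with 4 bases between, searched for as sites of factors active in glia and in sterol sensing, were in no promoter of either set and in 0.0365% and 0.0152% of all promoters. Only these exact letters were searched, and with shares this low over all promoters, finding none in sets of this size says little. Whether the promoters hold variants of these sites was not tested. A match shows letters and not binding.

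As lists, both phases of the cycle were lower in Apoe-high cells. Of 20 S phase genes compared, 13 were lower and 19 were below 0 in both libraries, and of 18 G2M genes 6 were lower and all 18 were below 0 in both, where 0.793% and 32.4% of all genes were. The S phase list summed to a mean of 7.74 normalised counts in Apoe-high and 17.1 in Apoe-low cells of the Kmt2d+/βgeo library, and to 4.64 and 13.1 in the wild type. These are log2 ratios of -1.14 and -1.49. The G2M list summed to 16.0 and 26.3, and to 9.90 and 23.8, with ratios of -0.72 and -1.27. A G2M sum above the median of the library was found in 27.2% of Apoe-high and 62.4% of Apoe-low cells of the Kmt2d+/βgeo library, and in 19.7% and 59.8% of those of the wild type. Apoe-high cells were therefore fewer among cells high in these genes but not absent from them, with 243 and 73 cells above the medians.

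Top2a, the topoisomerase of dividing cells, averaged 1.87 normalised counts in Apoe-high and 4.29 in Apoe-low cells of the Kmt2d+/βgeo library and 0.812 against 4.12 in the wild type, with log2 ratios of -1.20 and -2.34. Among cells between the quartiles of UMIs of their library the ratios were -0.76 and -0.97, under the limit in both. It was detected in 40.4% and 67.5% of the Kmt2d+/βgeo classes and in 35.3% and 61.5% of the wild-type ones. After thinning the shares were 20.9% and 45.4%, and 16.2% and 40.7%. Kif11, a spindle motor, had ratios of -1.22 and -2.69. Tmpo and Lbr, proteins of the inner nuclear membrane, had -1.18 and -1.66, and -1.19 and -1.56, and in Kmt2d+/βgeo -0.86 and -0.92 against cells with Apoe at 0. Among cells at or below the median G2M sum, a list that holds both genes, Tmpo had -0.84 and -0.45 and Lbr -1.08 and -0.98. Of 9 inhibitors of the cycle 6 were above 0 and 2 below 0 in both libraries, where 49.1% and 32.4% of all genes were. The limit on the lower side was passed by 1 of them, where 0.793% of all genes passed it. This was Rbl1, a relative of the retinoblastoma protein that is itself made in S phase, with -1.05 and -1.78, and with -0.96 in Kmt2d+/βgeo between the quartiles of UMIs. Cdkn2a, which encodes the inhibitors p16INK4a and p19ARF, had 1.18 in Kmt2d+/βgeo and 0.81 in wild type, and averaged 4.83 against 2.13 and 4.03 against 2.30 normalised counts.

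The 5 genes past the limit in 1 library whose ratio differed most between the libraries included 3 of mitosis. Nusap1, a spindle protein, had log2 ratios of -0.90 and -2.69, Zwilch, a kinetochore protein, had -1.0 and -2.70, and Anln, the cytokinesis protein anillin, had -0.93 and -2.61. The others were Ears2, a mitochondrial tRNA synthetase, with -0.31 and -1.81, and St8sia2, a polysialyltransferase, with 0.26 and 1.69. Between the quartiles of UMIs Nusap1 had -0.42 and -1.35 and Anln -0.82 and -1.13. Among cells at or below the median G2M sum Nusap1 had -0.034 and -0.093, Anln 0.18 and -0.0064 and Zwilch -0.75 and -1.46. Nusap1 and Anln are part of the G2M list that split the cells, so their ratios there were set in part by the split. Zwilch is not part of that list, and it stayed past the limit in the wild type alone. Whether the libraries differ in these genes was not tested.

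Because the S phase, G2M and astroglial genes moved with Apoe in the same cells, the classes were also compared within each side of the library's median G2M sum. Among cells at or below it, Abca1 had log2 ratios of 2.01 in Kmt2d+/βgeo and 2.23 in wild type, Slc1a2 had 1.83 and 2.20, S100b had 1.78 and 1.47 and Agt had 2.84 and 2.32. Among cells above it, Abca1 had 1.85 and 2.64, Slc1a2 had 1.12 and 2.13, S100b had 1.65 and 2.01 and Agt had 1.97 and 3.27. All 4 had ratios above 1 in both libraries on either side, and the part of the cycle in their differences was not tested, since the list that split the cells moved with Apoe. The S phase list had -0.83 and -0.57 among the lower cells and -0.54 and -1.29 among the higher ones, where it had -1.14 and -1.49 over all cells. Mcm6 had -1.23 and -1.29 among the lower cells and -0.82 and -1.40 among the higher ones. Of the 56 lower genes 6 were still counted as lower among the cells at or below the median, and 51 were still below 0 in both libraries there. Of the leading ones, Hells had -1.91 and -1.88, Mcm4 had -1.45 and -1.14 and Mthfd2 had -1.05 and -1.56. Under the limit in a library were Gins1, with -0.31 and -1.51, Dna2, with -0.48 and -1.01, and Cenps, with -0.97 and -2.48. So were Plk4, with -1.04 and -0.71, Chaf1a, with -1.11 and -0.76, and Wdr76, with -1.50 and -0.87. Kif11, which like Top2a is part of the list that split the cells, had -0.82 and -0.41. Top2a had -0.38 and 0.086 among the lower cells, so its wild-type direction turned there, and -0.13 and -1.39 among the higher ones. The cholesterol synthesis list had -0.47 and -0.79 among the lower cells and -0.27 and -0.82 among the higher ones.

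The levels changed by degrees along Apoe. In bins of 1 log2 unit from 1 upward, mean Abca1 of the Kmt2d+/βgeo library was 0.296, 0.418, 0.627, 0.957, 1.35 and 2.22 normalised counts, and 3.61 in cells at 7 or more. The wild-type means were 0.406, 0.744, 1.22, 1.69, 2.72 and 3.97, and 7.51. Slc1a3 also rose from bin to bin, from 7.15 and 9.19 in cells with Apoe between 1 and 2. It was at 9.52 and 12.7 in cells between 5 and 6, and at 15.5 and 34.8 in cells at 7 or more. Those highest bins held 70 and 11 cells. The S phase list summed to 16.9 in cells between 1 and 2 and to 4.04 in cells at 7 or more in the Kmt2d+/βgeo library, and to 12.6 and 4.19 in the wild type, where the bin from 6 to 7 was lower at 2.95. The cholesterol synthesis list was 15.8 and 15.3 in cells between 1 and 2 and 10.3 and 8.29 in those at 7 or more. Cells with Apoe at 0 had S phase sums of 17.4 and 11.2 and Slc1a3 means of 8.46 and 7.67, and in the Kmt2d+/βgeo library they had the lowest median depth of all bins. Their Abca1 means were 0.418 and 0.393, against 0.309 in both libraries in cells above 0 and up to 1, so Abca1 did not rise with Apoe there.

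**Figure D4:**
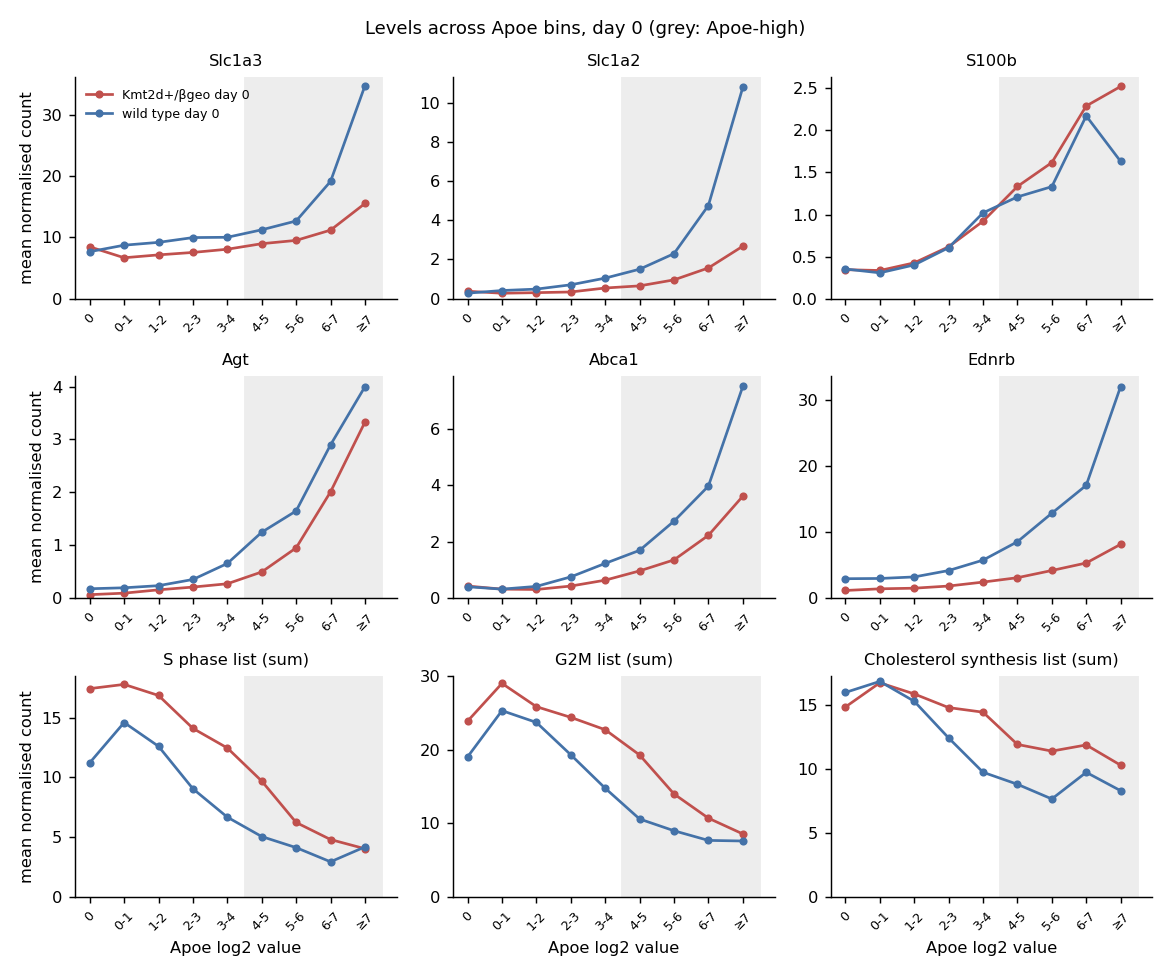
Mean normalised counts of 6 genes and the mean sums of 3 lists (vertical axes) in bins of the log2 value of Apoe (horizontal axes), in the Kmt2d+/βgeo library (red) and the wild type (blue), with the Apoe-high bins on grey. The 6 genes are highest in the upper bins and the 3 lists are lowest there, without a step at the threshold, and the highest bins hold 70 and 11 cells.

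Cells close to the limit at 4 differed less between its sides than the classes did. Their Apoe ranges adjoin, with means of 16.4 inside and 13.7 outside in Kmt2d+/βgeo and 16.4 and 13.8 in wild type. For a gene that follows Apoe the smaller difference was thus set by these ranges, and a step at the limit was not tested. In the Kmt2d+/βgeo library, cells just inside it averaged 9.32 normalised counts of Slc1a3 and 1.25 of S100b, and cells just outside it 8.51 and 1.05. In the wild type the means were 11.6 and 1.22 inside, and 10.2 and 1.13 outside. Slc1a2 averaged 0.584 inside and 0.601 outside in Kmt2d+/βgeo and 1.57 and 1.20 in wild type. Top2a averaged 2.82 inside and 3.12 outside in Kmt2d+/βgeo and 0.902 and 1.10 in wild type.

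Set against each other, the Apoe-high cells of the 2 genotypes differed by 2-fold in 271 genes. Of 7374 genes compared, 103 were higher in Kmt2d+/βgeo (1.4%) and 168 lower (2.28%). Among Apoe-low cells 120 of 7055 genes differed, 50 of them higher in Kmt2d+/βgeo (0.709%) and 70 lower (0.992%). The wild type had 371 Apoe-high and 2729 Apoe-low cells, so the counts of the classes rest on unlike numbers of cells. In both classes 79 genes passed the limit with 1 sign, which is 29.2% of those in the Apoe-high and 65.8% of those in the Apoe-low cells. Cpe, carboxypeptidase E, averaged 3.85 normalised counts in Kmt2d+/βgeo and 16.6 in wild-type Apoe-high cells, a log2 ratio of -2.11, and -1.98 in Apoe-low cells. Of the genes that led the higher set, Fbxo32 was at -2.28 and Itih5 at -2.22 between the genotypes in Apoe-high cells, and at -1.98 and -1.56 in Apoe-low cells. Nr2f2, a transcription factor of regional identity, was at 2.12 and 1.75. Cpe and Nr2f2 were picked out after their values were seen. With 1 library a genotype these are differences between libraries.

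The genes that set Apoe-high cells apart at day 0 were then followed over all cells after withdrawal of growth factors. The 130 higher genes had a median level of 0.143 normalised counts in Apoe-low and 0.360 in Apoe-high cells of the Kmt2d+/βgeo library, and of 0.645, 0.689 and 0.627 over all cells of days 2, 4 and 8. In the wild type the medians were 0.178 and 0.520, then 0.696, 0.655 and 0.656. Above the day 0 Apoe-high level lay 106, 104 and 90 of the 130 genes on days 2, 4 and 8 in Kmt2d+/βgeo, and 99, 84 and 83 in wild type. Of all 7058 genes 47.1%, 55.0% and 47.3% lay above that level in Kmt2d+/βgeo and 43.4%, 50.5% and 45.6% in wild type. The 56 lower genes had a median of 0.463 in Apoe-low and 0.188 in Apoe-high cells of the Kmt2d+/βgeo library, and of 0.0643, 0.0990 and 0.0728 on the later days. In the wild type the medians were 0.329 and 0.0935, then 0.0572, 0.10 and 0.0971. Below the day 0 Apoe-high level lay 53, 51 and 46 of the 56 genes on days 2, 4 and 8 in Kmt2d+/βgeo, and 53, 30 and 34 in wild type, where the medians of days 4 and 8 were above that of Apoe-high cells. Of all genes 52.9%, 45% and 52.7% lay below that level in Kmt2d+/βgeo and 56.6%, 49.5% and 54.4% in wild type, so the wild-type counts of days 4 and 8 were near the share of all genes. Between the 2 day 4 libraries 0 of 7459 genes differed by 2-fold, against 110, 209 and 369 genes on days 0, 2 and 8, so the genotypes of the day 4 values are in doubt, and the values of days 2 and 8 stand without them. Apoe itself averaged between 94.7 and 244 normalised counts in the later libraries, above the 51.2 and 36.9 of Apoe-high cells.

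Single genes took different courses. Abca1, at 1.42 and 2.29 in the Apoe-high cells of Kmt2d+/βgeo and wild type, was at 3.13 and 3.64 on day 2 and 3.22 and 2.67 on day 8. Cst3, at 19.3 and 30.9, was at 108 and 142 on day 2. Agt, at 1.01 and 1.55, was at 1.98 and 2.12 on day 2 and 0.939 and 1.61 on day 8. S100b, at 1.62 and 1.33 in Apoe-high cells, was lower on every later day in Kmt2d+/βgeo, between 0.867 and 1.13, and between 1.40 and 1.63 in wild type.

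**Figure D5:**
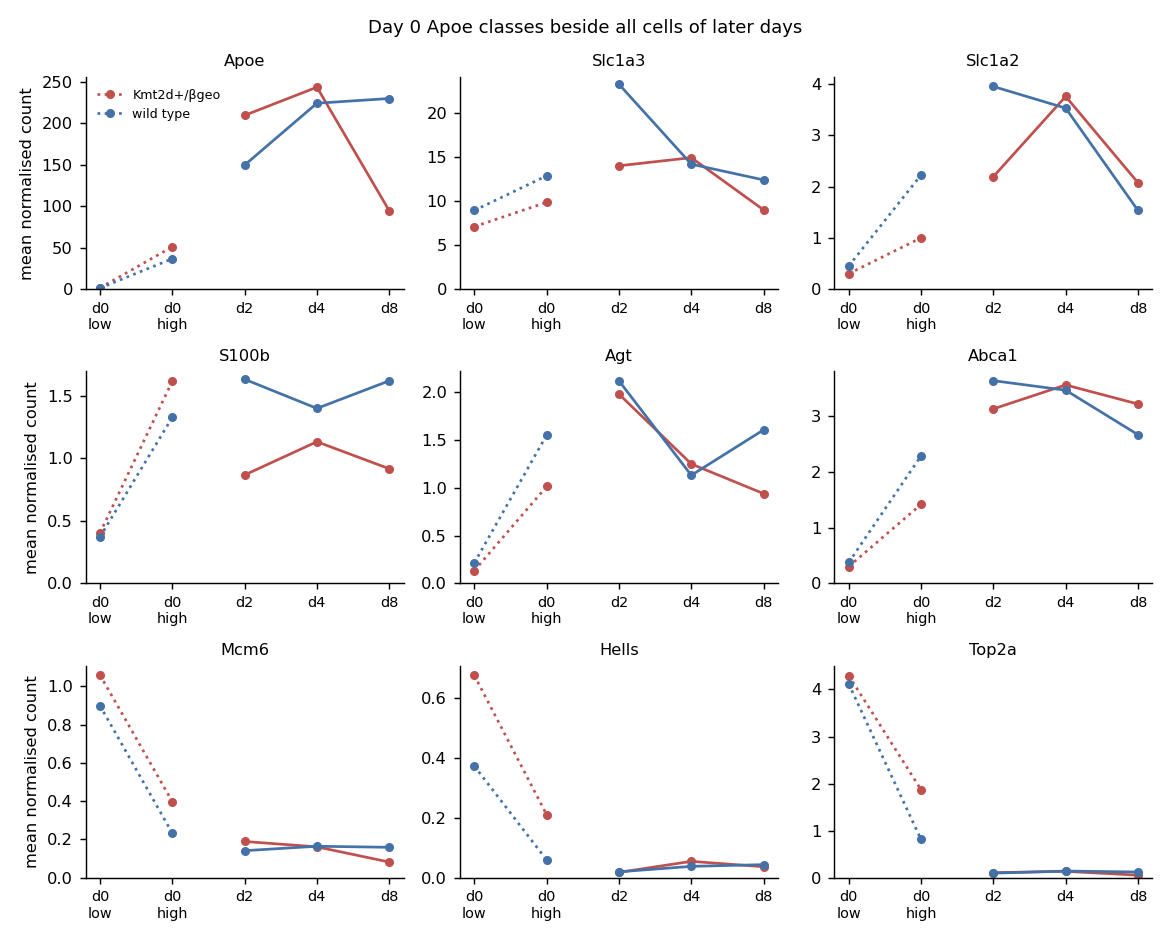
Mean normalised counts (vertical axes) of 9 genes in day 0 Apoe-low and Apoe-high cells (dotted lines) and over all cells of days 2, 4 and 8 (solid lines), in Kmt2d+/βgeo (red) and wild type (blue), 1 library per point. Apoe, Slc1a2 and Abca1 are higher on day 2 than in day 0 Apoe-high cells, while Mcm6, Hells and Top2a are lower.

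The same classes could be compared once more on later cells in the Kmt2d+/βgeo library of day 8, the only later library with at least 50 Apoe-low cells. It held 2771 Apoe-high and 75 Apoe-low cells, with median totals of 8076 and 6466 UMIs, so the order of depths was the opposite of day 0. Of the day 0 higher genes 129 could be compared, and 57 were higher again (44.2%), where 8.84% of all genes were. Of the lower genes 48 could be compared and 37 were lower again (77.1%), where 15.1% were. The signs were the same for 102 of the 129 and 43 of the 48, where 41.2% of all genes were above 0 and 58.8% below. With 75 Apoe-low cells the floor of 3 UMIs lay above the minimum mean of 0.1, so Apoe-low means under the floor were raised. Itih5, with means of 0.135 and 0, thus had a ratio of 0.06. The floor moved the ratios of such genes downward, so these counts and shares lean to the lower side, and by how much was not tested. Abca1 had a log2 ratio of 1.72, Agt of 1.50, S100b of 1.37 and Slc1a3 of 1.73, and Mcm6 had -2.39 and Top2a -4.30. Other named genes went the other way from day 0. Enpp2 averaged 0.10 normalised counts in Apoe-high and 1.00 in Apoe-low cells, a ratio of -3.33. Lhfpl3, of the oligodendrocyte lineage list, averaged 0.119 and 5.17, a ratio of -5.44, where it had 1.48 and 0.76 at day 0. Ptprz1 had -2.01 and Cspg5, a proteoglycan of the glial matrix list, had -1.43, where both were above 0 at day 0. In the Kmt2d+/βgeo library of day 0, Lhfpl3 averaged 0.419 in Apoe-high and 0.150 in Apoe-low cells, and Enpp2 0.436 and 0.116. By these genes both classes of day 8 differed from those of day 0. These cells were not used by the day 0 rule, but the values come from 1 library and 75 cells of 1 class.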

How the data were processed

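Per the study's methods and the labels' processing notes, the authors counted spliced molecules with alevin of Salmon 1.3.0 against GRCm38, removed cells of poor quality and likely doublets, divided each cell's counts by a library size factor and deposited log2 values (pseudocount 1) for 9140 genes and 30408 cells. The notes also name Seurat 3.2.2. Total UMIs per cell are the authors' deposited estimated counts. The log2 values were turned back to normalised counts, which summed to 8707 in every cell. The commonest value of a cell was taken as 1 UMI, and 86.8% of nonzero values then lay within 0.01 of a whole UMI. These estimated counts were rounded for pooling and for thinning, drawn without replacement to 3000 UMIs.

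Ratios used means of normalised counts, with means under 3 UMIs a class set to that floor. With 1 library per genotype no test between groups was run. Pooled ratios have exact conditional intervals and shares exact Clopper-Pearson intervals at 95%. Cells, gene lists and the rule for named genes (Apoe and Slc1a3, the 10 leading genes in each direction, up to 4 genes per list, up to 5 that differed between libraries, and defining markers of other cell types) were chosen with earlier results of these data known. Genes outside the rule are named as picked after their values were seen, or belong to a list. Coordinates were read from the deposited gene table, on GRCm38. Python 3.11.15, numpy 2.4.6, scipy 1.17.1, pandas 2.3.3 and matplotlib 3.10.9 were used. A few genes of the lists are not reported here.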

Additional observations from a re-analysis of the deposited data

How the results depend on the processing

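Each choice was changed on its own. With the Apoe limit at 3 the class held 37.5% of Kmt2d+/βgeo and 19.4% of wild-type day 0 cells, and with the limit at 5 it held 9.65% and 2.68%, so the size of the class is set by the limit while the order of the libraries was the same. At the limit of 5, 253 genes were higher and 126 lower, and these included 124 of the 130 and all 56. A minimum mean of 0.5 left 51 higher and 20 lower genes, since fewer genes were compared. Cells between the quartiles of UMIs gave 138 and 37, of which 107 and 28 were among the 130 and 56, thinned cells gave 125 and 68, of which 97 and 48 were, and a low class of cells with Apoe at 0 gave 124 and 43, of which 79 and 34 were, so many of the genes counted differed. Among cells at or below the library's median G2M sum 109 genes were higher but 7 lower, of which 91 and 6 were shared, and 51 of the 56 lower genes were still below 0 in both libraries. Taken as a difference of mean log2 values, 0 genes passed in either direction, a scale on which differences of genes with few UMIs are smaller, and all 130 and 56 kept their sides. The signs of all 130 and 56 were kept at the limit of 5, between the quartiles, after thinning and against cells with Apoe at 0, and no gene ratio was computed at the limit of 3.

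The S phase list ratio, -1.14 in Kmt2d+/βgeo and -1.49 in wild type, was -1.01 and -1.31 between the quartiles of UMIs and -1.63 and -1.75 at the limit of 5, and in wild type it was -1.27 against cells with Apoe at 0. It was -0.83 and -0.57 among cells at or below the median G2M sum and -0.54 and -1.29 above it, settings chosen after seeing the data. The G2M list ratio was -0.74 and -1.32 after thinning, -0.56 and -0.76 between the quartiles, -1.10 and -1.47 at the limit of 5 and -0.58 and -0.94 against cells with Apoe at 0. The cause of these shifts was not tested. Neither list ratio changed sign in these settings. Of the named genes past the limit in a library, Top2a in wild type went from -2.34 to 0.086 among cells at or below the median G2M sum, and Col11a1 in wild type went from 1.08 to -0.12 after thinning. The classes were compared within each library, so that comparison is paired by library with 2 pairs, and no test was run on it because the cells were chosen by their values. No paired analysis was possible because each genotype has 1 library at day 0 where the genotypes are compared, and no replicate could be left out there. Genes with a mean near 0.1 rest on few UMIs in the wild-type class, where the lowest total over the genes counted as higher or lower was 9.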
